A study of Mus musculus with 19 samples.

Results

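The genes described here are 9 markers of resident cardiac macrophages: Mrc1, Cd163, Lyve1, Folr2, F13a1, Timd4, Maf, Cbr2 and Gas6. They were chosen by name as rows of a table of gene counts, and are 9 of its 25239 gene symbols. All 9 passed the filter on low counts that left 14301 genes for testing. The table holds 19 RNA sequencing libraries of mouse heart tissue, from a study of Mcm8 and vascular health in experimental Kawasaki disease. Mcm8 encodes a helicase that acts in DNA replication and repair. LCWE, an extract of the cell wall of Lactobacillus casei, inflames the coronary arteries of mice and serves as the model's agent, and PBS is phosphate-buffered saline. There were 5 libraries of Mcm8-/- hearts with LCWE treatment and 3 of Mcm8-/- hearts with PBS. Wild-type hearts gave 6 libraries with LCWE and 5 with PBS. In what follows Mcm8-/- is written KO and wild type WT. The sources used here give no strain, age, LCWE dose or time, and do not say that each sample is a separate animal. The p-values therefore speak of the spread among these libraries, which may be technical.

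Resident macrophages of the heart settle largely before birth, renew themselves in place and clear dying cells and debris, while monocytes arrive from blood during inflammation and can become macrophages there. The resident cells are usually recognised by Timd4, Lyve1 and Folr2, together with endocytic receptors such as Mrc1 and Cd163. The 9 markers do different work. Mrc1, the mannose receptor, takes up glycoproteins. Cd163 takes up haemoglobin bound to haptoglobin. Lyve1 binds hyaluronan and is also carried by lymphatic endothelium, and Folr2 binds folate. Timd4 recognises phosphatidylserine on dying cells, and Gas6 bridges the same lipid to the TAM receptors Tyro3, Axl and Mertk. F13a1 is the catalytic subunit of clotting factor XIII, which is also found in platelets. Cbr2 is a carbonyl reductase, and Maf is a transcription factor of macrophage differentiation.

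The promoter windows of 4 genes are shown because Mrc1, F13a1, Folr2 and Cbr2 moved together across the libraries, as described further on. They come from RefSeq on build GRCm38.p6 and run from 250 bases before to 50 bases after a transcript start. Windows were found for 7 of the 9 genes, but not for Lyve1 and Maf. Capitals mark matches to GAGGAA, the core bound by the macrophage factor PU.1, or to TGCTGA, part of the site bound by Maf proteins. Both were searched on both strands, so the reverse complements TTCCTC and TCAGCA are in capitals too. Each is written 5′ to 3′ on the strand of its gene.

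Mrc1, chr2:14229164-14229463, plus strand: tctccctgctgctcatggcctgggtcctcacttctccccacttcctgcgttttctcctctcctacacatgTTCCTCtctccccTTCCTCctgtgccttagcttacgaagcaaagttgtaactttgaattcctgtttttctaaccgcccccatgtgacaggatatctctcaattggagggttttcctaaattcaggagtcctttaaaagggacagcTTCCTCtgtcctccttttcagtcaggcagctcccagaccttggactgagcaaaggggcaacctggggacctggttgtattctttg

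F13a1, chr13:37050195-37050494, minus strand: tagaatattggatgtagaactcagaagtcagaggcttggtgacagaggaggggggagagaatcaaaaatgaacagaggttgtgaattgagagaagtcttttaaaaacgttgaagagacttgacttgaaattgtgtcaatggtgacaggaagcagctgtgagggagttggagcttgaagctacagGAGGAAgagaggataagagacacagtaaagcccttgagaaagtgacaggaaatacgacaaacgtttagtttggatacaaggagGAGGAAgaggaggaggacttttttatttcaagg

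Folr2, chr7:101845282-101845581, minus strand, 1 of 2 RefSeq starts: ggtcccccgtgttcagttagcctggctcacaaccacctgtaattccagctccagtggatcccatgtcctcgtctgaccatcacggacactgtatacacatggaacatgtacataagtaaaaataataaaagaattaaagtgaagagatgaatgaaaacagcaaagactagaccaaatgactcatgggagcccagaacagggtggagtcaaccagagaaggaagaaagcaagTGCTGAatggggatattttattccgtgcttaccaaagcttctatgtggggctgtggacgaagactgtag

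Cbr2, chr11:120731972-120732271, minus strand: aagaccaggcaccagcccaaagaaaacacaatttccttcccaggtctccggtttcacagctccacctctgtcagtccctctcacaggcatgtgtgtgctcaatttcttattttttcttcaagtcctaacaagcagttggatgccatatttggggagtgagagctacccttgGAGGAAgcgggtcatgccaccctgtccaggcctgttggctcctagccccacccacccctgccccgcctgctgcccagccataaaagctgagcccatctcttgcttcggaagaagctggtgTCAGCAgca

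The Mrc1 window held 3 matches to the PU.1 core. The F13a1 window shown, from 1 of 2 RefSeq starts, held 2, of which 1 lay at -66 from the start. The Cbr2 window held 1 match to each motif, and the Folr2 window 1 match to the Maf motif, at -19 from the start. Of the 9 windows found for the 7 genes, 4 held GAGGAA and 4 held TGCTGA. F13a1 and Folr2 have 2 windows each, so these counts include them more than once. Each F13a1 window held GAGGAA and each Folr2 window held TGCTGA. Over all 32851 mouse windows of the same length, the shares were 28.3% and 19.5%. A match of these letters is not evidence of binding.

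Total counts ranged from 11853233 to 16145911 per library. Mcm8, the deleted gene, lay between 0.130 and 0.910 CPM (counts scaled to library size and composition) in the 8 KO libraries and between 2.60 and 5.19 CPM in the 11 WT libraries, so every library matched its genotype label. Several other properties divided the libraries and were not balanced over the groups. Xist exceeded 20 CPM in 1 of 5 KO LCWE, 2 of 3 KO PBS, 5 of 6 WT LCWE and 5 of 5 WT PBS libraries. The liver transcript Alb exceeded 20 CPM in 5 of 5, 2 of 3, 4 of 6 and 2 of 5 libraries in the same order. The ribosomal RNA gene Rn45s reached 1257 to 2374 CPM in WT LCWE replicates 1 to 3, and lay at 437 to 740 CPM in the other libraries. The part of these properties in the results below was not tested, except by the subsets named beside them.

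The 9 genes lie on 6 autosomes, given here on build GRCm38 with the GENCODE M21 annotation, in which all are protein coding. Mrc1 spans chr2:14229392-14332057 and holds the miRNA gene Mir511 on its own strand. F13a1 spans chr13:36867178-37050244, Folr2 chr7:101839988-101857194 and Cbr2 chr11:120729489-120732114, and Timd4 lies on the same chromosome as Cbr2 at chr11:46810800-46844332. Cd163 spans chr6:124304656-124330527, Lyve1 chr7:110850607-110863239, Maf chr8:115682942-115707794 and Gas6 chr8:13465374-13494490. The counting is not stated to use strand. Exons of Folr2, F13a1, Maf and Gas6 overlap the span of a gene on the other strand, introns included. It is not known to which gene reads from such stretches were counted.

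The 9 genes differ widely in level. Per kilobase of exon, WT PBS hearts had 99.8 ± 10.7 RPKM of Gas6 (SD, n = 5) and 18.5 ± 1.69 RPKM of Cbr2, each clear of the next gene in every library. Folr2 with 8.19 ± 1.19, F13a1 with 7.77 ± 2.11, Cd163 with 4.79 ± 1.59, Lyve1 with 4.70 ± 1.29 and Mrc1 with 3.86 ± 0.987 RPKM followed, and each of these overlapped its neighbour in this order. Maf with 0.942 ± 0.208 and Timd4 with 0.643 ± 0.15 RPKM were the lowest and overlapped each other. Gas6 and Cbr2 were the highest and Maf and Timd4 the lowest in all 4 groups. Timd4 rested on 0 to 45 counts per library, so its values carry the most counting error of the 9.

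LCWE against PBS in KO hearts was the comparison that held the only calls. Of the 9 genes, 2 passed the test, Mrc1 and F13a1, and both rose. The test was the quasi-likelihood test of edgeR with Benjamini-Hochberg adjustment over all 14301 genes at 0.05, and 0.818% of all genes rose by it. At an unadjusted p below 0.05 there were 5 of 9 markers, against 23.4% of all genes. The estimate was above 0 in 8 of 9 markers with a median log2 fold change of 0.56, where all genes had a median of 0.01. The KO groups did not overlap for 3 of 9 markers, Mrc1, F13a1 and Maf, against 8.61% of all genes. In whole hearts, more cells of a type and more RNA per cell cannot be told apart.

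Mrc1 had 32.2, 31.6, 28.6, 49.9 and 41.9 CPM in the KO LCWE libraries, against 10.8, 20.3 and 11.8 CPM in the KO PBS libraries. Every KO LCWE library lay above every KO PBS library. The log2 fold change was 1.36 ± 0.25 (SE), with a 95% interval of 0.84 to 1.89 and an adjusted p of 0.0182 in edgeR. WT LCWE hearts had 22.2 to 38.3 CPM of Mrc1 with a median of 29.6 (n = 6), against 20.5, 19.8, 18.9, 29.5 and 15.1 CPM in WT PBS hearts. Here the groups overlapped, since the WT PBS replicate 4 stood among the LCWE libraries, and the log2 fold change of 0.53 ± 0.20 did not pass (edgeR adjusted p = 0.772).

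F13a1 had 45.2, 38.5, 43.4, 94.7 and 44.6 CPM in KO LCWE hearts, against 15.5, 34.2 and 14.8 CPM in KO PBS hearts. The KO groups did not overlap, and KO LCWE replicate 4 stood far above the other LCWE libraries. The log2 fold change was 1.31 ± 0.33, with a 95% interval of 0.62 to 2.0 and an edgeR adjusted p of 0.0425. In WT hearts F13a1 ran from 35.1 to 63.0 CPM after LCWE with a median of 41.3, against 30.1, 27.6, 30.9, 44.8 and 22.1 CPM after PBS. These groups overlapped, and the log2 fold change of 0.48 ± 0.26 did not pass (edgeR adjusted p = 0.794).

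Both calls rest on few libraries. Mrc1 remained past the threshold in 16 of the 19 fits that each left out 1 library. It missed without KO LCWE replicate 5 (adjusted p = 0.0508), KO PBS replicate 1 (0.197) or KO PBS replicate 3 (0.0628), with log2 fold changes of 1.31, 1.197 and 1.25. F13a1 remained in 8 of the 19. Without KO LCWE replicate 4, its highest library, the log2 fold change was 0.996 with an adjusted p of 0.0545. It was 1.36, 1.37 and 1.37 without KO LCWE replicate 1, 3 or 5 (adjusted p = 0.0665, 0.0638 and 0.0702), and 1.122 and 1.106 without KO PBS replicate 1 or 3 (0.305 and 0.139). Without WT LCWE replicate 5 or 6, or WT PBS replicate 1, 2 or 3, which enter only the shared estimate of spread, it stayed at 1.297 to 1.311, and the adjusted p of F13a1 lay between 0.0507 and 0.0564. Among the libraries with Xist above 20 CPM, the only KO LCWE library was replicate 4, against 2 KO PBS libraries. The estimates there were 1.64 for Mrc1 and 1.95 for F13a1. Replicate 4 was the highest KO LCWE library for both genes, so these estimates rest on it and no conclusion is drawn from them.

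**Figure D1:**
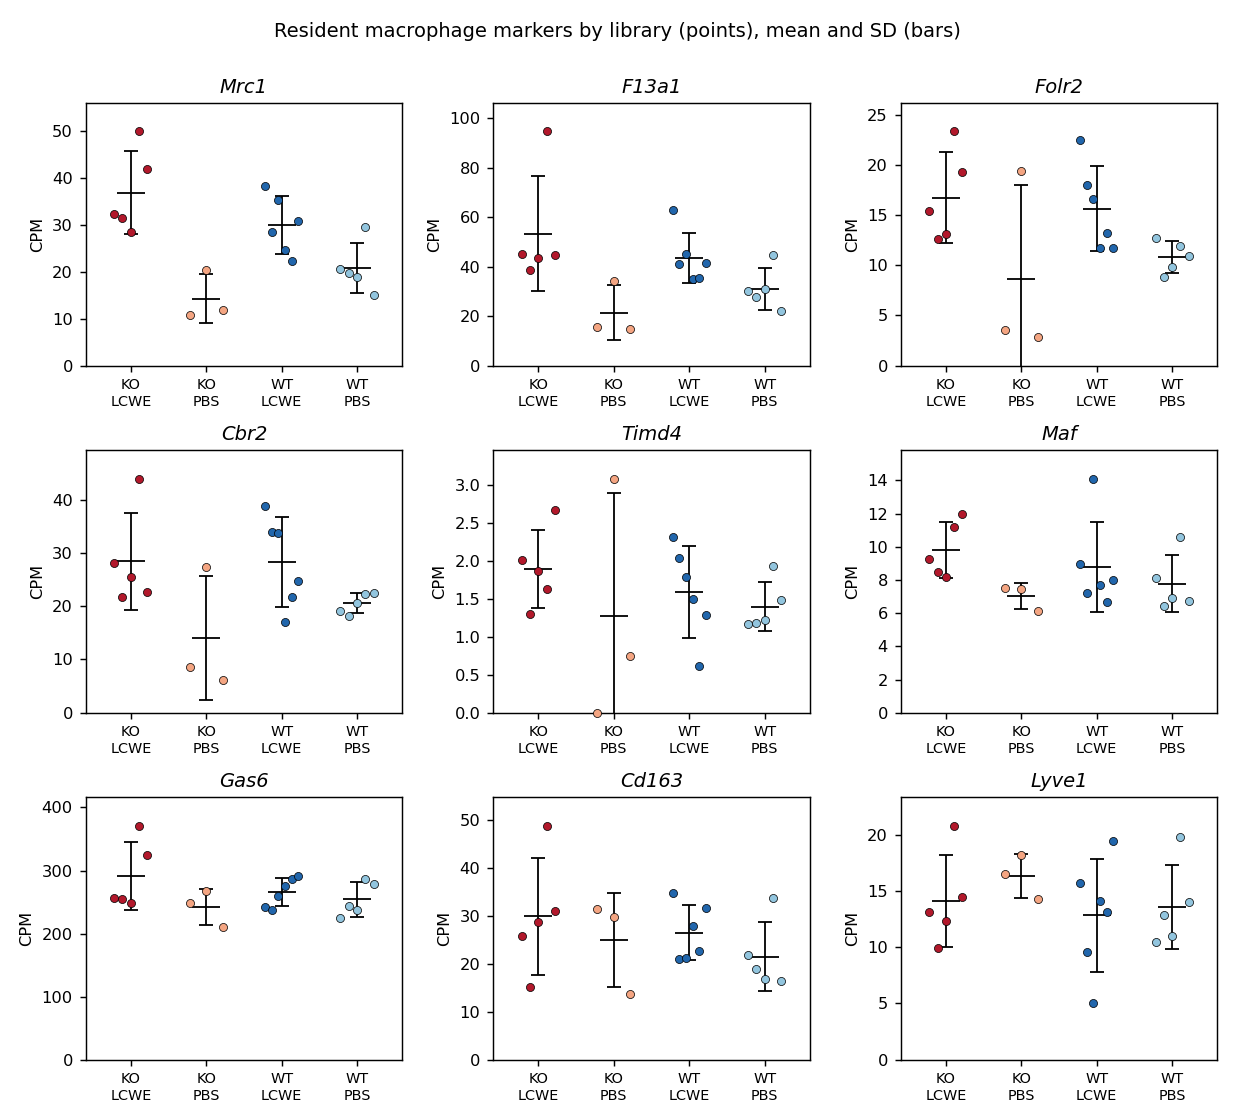
CPM of each of the 9 markers (y axis, linear from 0) in every library, by group (x axis), with bars for the mean and SD of n = 5, 3, 6 and 5 libraries from left to right; SD bars that reach below 0 are cut there. Mrc1 in KO LCWE libraries (28.6 to 49.9 CPM) lies above all 3 KO PBS libraries, whereas Lyve1 overlaps in every pair of groups, and 1 of 3 KO PBS libraries stands far above the other 2 in Folr2 and Cbr2.

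Folr2, Cbr2 and Timd4 had higher means after LCWE in KO hearts too, but the 3 KO PBS libraries were split. Folr2 had 15.4, 12.6, 13.1, 23.3 and 19.3 CPM in KO LCWE hearts, against 3.57, 19.4 and 2.86 CPM in KO PBS hearts. KO PBS replicate 2 thus lay within the LCWE range, and replicates 1 and 3 lay below every other library of the series. The log2 fold change of 0.95 ± 0.44 did not pass (edgeR adjusted p = 0.203). In WT hearts Folr2 ran from 11.7 to 22.5 CPM after LCWE with a median of 14.9, against 12.7, 8.78, 9.81, 11.9 and 10.9 CPM after PBS, a log2 fold change of 0.53 ± 0.36 that did not pass (adjusted p = 0.851).

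Cbr2 repeated this division. It had 28.1, 21.8, 25.6, 44.0 and 22.6 CPM in KO LCWE hearts, against 8.61, 27.4 and 6.10 CPM in KO PBS hearts. The same KO PBS libraries, replicates 1 and 3, were the lowest of all 19. The log2 fold change was 1.01 ± 0.38 with an edgeR adjusted p of 0.121, while DESeq2 called it as higher after LCWE. WT LCWE hearts had 17.0 to 38.9 CPM with a median of 29.2, against 19.04, 18.3, 20.6, 22.2 and 22.5 CPM in WT PBS hearts. The WT PBS libraries were close together and lay inside the LCWE range, with a log2 fold change of 0.47 ± 0.30 (adjusted p = 0.839).

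Timd4, the marker most closely tied to long-lived resident cells, had 2.01, 1.298, 1.87, 1.63 and 2.67 CPM in KO LCWE hearts, against 0, 3.09 and 0.753 CPM in KO PBS hearts. Replicate 2 of KO PBS was thus the highest of all libraries and replicate 1 had 0 counts, where 3 counts would be 0.210 CPM. WT LCWE hearts had 0.615 to 2.32 CPM with a median of 1.64, against 1.17, 1.18, 1.22, 1.94 and 1.49 CPM in WT PBS hearts. The groups overlapped in both genotypes. The log2 fold changes were 0.56 ± 0.64 in KO and 0.18 ± 0.52 in WT hearts, and neither passed (edgeR adjusted p = 0.629 and 0.971).

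Maf had 9.28, 8.50, 8.17, 11.2 and 12.0 CPM in KO LCWE hearts, against 7.49, 7.47 and 6.10 CPM in KO PBS hearts. The groups did not overlap, but the log2 fold change of 0.48 ± 0.23 did not pass (edgeR adjusted p = 0.206). In WT hearts Maf ran from 6.69 to 14.1 CPM after LCWE with a median of 7.84, against 8.10, 6.42, 6.92, 10.6 and 6.76 CPM after PBS. The highest WT LCWE value was that of replicate 3, and the other WT LCWE libraries lay within the PBS range (log2 fold change 0.17 ± 0.19, adjusted p = 0.907).

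Gas6, the secreted ligand of the set, had 257, 256, 248, 371 and 325 CPM in KO LCWE hearts, against 249, 267 and 211 CPM in KO PBS hearts. KO LCWE replicates 4 and 5 were higher, and the other 3 KO LCWE libraries lay within the PBS range. The log2 fold change was 0.26 ± 0.14, with a 95% interval of -0.03 to 0.56 (edgeR adjusted p = 0.259). WT LCWE hearts had 238 to 291 CPM with a median of 268, against 224, 243, 238, 287 and 279 CPM in WT PBS hearts, a log2 fold change of 0.06 ± 0.12 that did not pass (adjusted p = 0.957). WT PBS hearts averaged 254 CPM of Gas6 and 60.4 CPM of the macrophage gene Csf1r. The part of cells other than macrophages in the Gas6 values was not tested.

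Cd163 and Lyve1 had the lowest estimates of the 9 for LCWE in KO hearts, with that of Cd163 close to that of Gas6. Cd163 had 25.7, 15.3, 28.6, 48.8 and 31.0 CPM in KO LCWE hearts, against 31.4, 29.8 and 13.8 CPM in KO PBS hearts. KO LCWE replicate 4 was the highest and KO PBS replicate 3 the lowest of these 8 libraries. WT LCWE hearts had 21.1 to 34.6 CPM with a median of 25.3, against 21.9, 18.8, 16.9, 33.6 and 16.3 CPM in WT PBS hearts. The groups overlapped in both genotypes, with log2 fold changes of 0.25 ± 0.32 in KO and 0.30 ± 0.27 in WT hearts (edgeR adjusted p = 0.667 and 0.891).

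Lyve1 was the 1 marker with a negative estimate in both genotypes. It had 13.1, 9.93, 12.3, 20.8 and 14.5 CPM in KO LCWE hearts, against 16.5, 18.2 and 14.2 CPM in KO PBS hearts. WT LCWE hearts had 5.02 to 19.5 CPM with a median of 13.6, against 10.4, 12.8, 10.95, 19.8 and 14.0 CPM in WT PBS hearts. Groups overlapped in both, and the log2 fold changes of -0.21 ± 0.31 in KO and -0.08 ± 0.26 in WT hearts did not pass (edgeR adjusted p = 0.719 and 0.973). The interval for KO hearts, -0.85 to 0.43, does not exclude a change of either sign. Of the 8 lymphatic endothelial markers, which share Lyve1 with macrophages, 7 were tested and 0 passed in edgeR, and Ccl21a was at 0 in every library. Their summed level ran from 131 to 203 CPM in KO LCWE, 174 to 177 in KO PBS, 129 to 175 in WT LCWE and 170 to 215 CPM in WT PBS libraries. This sum mainly follows Nrp2, Prox1 and Flt4, with means of 66.7, 50.7 and 35.3 CPM in KO LCWE hearts. For LCWE in KO hearts, 3 of the 7 estimates were above 0, with a median of -0.17. The part of lymphatic vessels in the Lyve1 values was not tested.

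In WT hearts as a whole, 0 of 9 markers passed in edgeR for LCWE against PBS, and 0% of all genes did. DESeq2 and limma-voom also called 0 of 9. At an unadjusted p below 0.05 there was 1 marker, Mrc1, against 6.24% of all genes. The estimate was above 0 in 8 of 9 with a median of 0.30 (all genes: 0.01). Mrc1, Folr2, F13a1 and Cbr2 were the highest here as in KO hearts, at 0.47 to 0.53, and Lyve1 was last, while Cd163, at 0.30, stood in the middle.

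**Figure D2:**
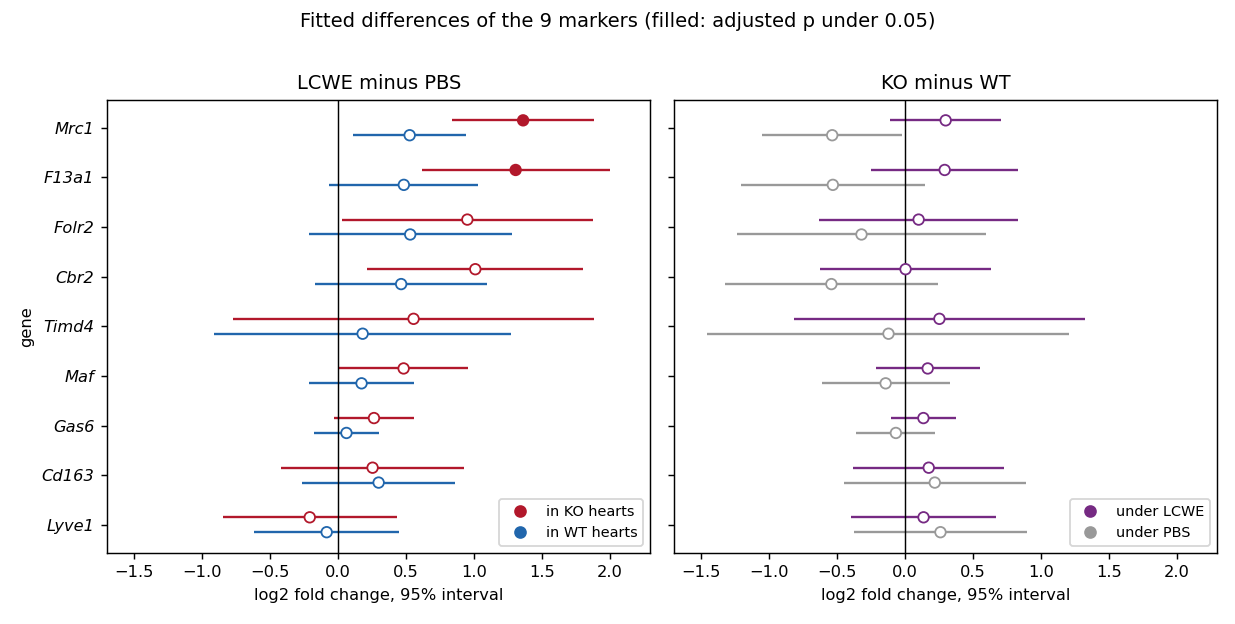
Fitted log2 fold change (x axis) of each marker (y axis) with its 95% interval: on the left LCWE minus PBS in KO hearts and in WT hearts, on the right KO minus WT under LCWE and under PBS; filled points passed an edgeR adjusted p of 0.05. Only Mrc1 (1.36) and F13a1 (1.31) in KO hearts are filled, and every interval of KO minus WT under LCWE includes 0.

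The difference between these responses was tested directly as an interaction. In edgeR 0 of 9 markers passed, as did 0% of all genes, and DESeq2 and limma-voom also called 0 of 9. Mrc1, the 1 marker at an unadjusted p below 0.05 (8.01% of all genes), had an interaction of 0.84 ± 0.31 on the log2 scale with a 95% interval of 0.18 to 1.49 (edgeR adjusted p = 0.587). F13a1 had 0.82 ± 0.41, with an interval of -0.04 to 1.69 (adjusted p = 0.636). Thus the larger estimates in KO hearts were not shown to differ from those in WT hearts.

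Under LCWE the genotypes were close. KO against WT called 0 of 9 markers in edgeR, DESeq2 and limma-voom, with 0 markers at an unadjusted p below 0.05, against 0.00699% and 5.55% of all genes. All 9 estimates lay at or above 0, from 0.00 ± 0.30 for Cbr2 to 0.30 ± 0.20 for Mrc1, with a median of 0.17. Cbr2 averaged 28.4 ± 9.07 CPM in KO LCWE hearts and 28.3 ± 8.45 CPM in WT LCWE hearts (SD, n = 5 and 6). Folr2 averaged 16.7 ± 4.52 CPM in KO LCWE hearts and 15.6 ± 4.24 CPM in WT LCWE hearts. The intervals leave room for moderate differences: -0.11 to 0.71 for Mrc1, -0.63 to 0.83 for Folr2 and -0.62 to 0.63 for Cbr2 on the log2 scale.

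Under PBS, 7 of the 9 estimates for KO against WT were below 0, with a median of -0.14. Again 0 of 9 passed in edgeR (0.601% of all genes), in DESeq2 and in limma-voom, and 1, Mrc1, had an unadjusted p below 0.05 (19.7% of all genes). Mrc1 averaged 14.3 ± 5.22 CPM in KO PBS hearts and 20.8 ± 5.30 CPM in WT PBS hearts (SD, n = 3 and 5), a log2 fold change of -0.54 ± 0.25 (edgeR adjusted p = 0.233). Cbr2 and F13a1 had -0.54 ± 0.37 and -0.53 ± 0.32, while Lyve1 and Cd163 were the 2 above 0, at 0.26 ± 0.31 and 0.22 ± 0.32. This comparison and that of LCWE against PBS in KO hearts share the 3 KO PBS libraries, so their opposite signs are not separate results.

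Leaving out 1 of these 3 libraries moved the calls in both directions. Replicates 1 and 3 of KO PBS held the lowest values of all 19 libraries for Mrc1, F13a1, Folr2 and Cbr2, and replicate 2 lay at or above the middle of the WT PBS libraries for each of these. Without replicate 2, 5 of 9 markers rose with LCWE in KO hearts in edgeR: Folr2 by 2.37 ± 0.31 (adjusted p = 0.000144), Cbr2 by 1.94 ± 0.32 (0.000894), Mrc1 by 1.70 ± 0.27 (0.000636), F13a1 by 1.81 ± 0.35 (0.00225) and Timd4 by 2.33 ± 0.69 (0.0244). In that fit 20.2% of all genes were called. Against WT PBS, 4 markers fell in KO PBS hearts, with -1.74 for Folr2, -1.48 for Cbr2, -1.04 for F13a1 and -0.88 for Mrc1 (edgeR adjusted p from 0.00117 to 0.0399, and 17.9% of all genes called). The interaction then called 3 of 9, Folr2 at 1.85, Cbr2 at 1.49 and Mrc1 at 1.18 (adjusted p from 0.0106 to 0.0458, and 3.31% of all genes). Without replicate 1 or without replicate 3, 0 of 9 passed in any of these comparisons.

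The 2 low libraries differ in the other properties measured. Replicate 1 had Alb at 2.17 CPM, Xist at 0.350 CPM and Y-linked transcripts, whereas replicate 3 had Alb at 313 CPM and Xist at 250 CPM. Their summed pan-macrophage genes lay at 306 and 243 CPM, against 602 CPM in replicate 2 and 421 to 525 CPM in the WT PBS libraries. Their MHC class II genes, which mark antigen presentation, summed to 20.7 and 65.8 CPM, against 433 CPM in replicate 2 and 207 to 321 CPM in WT PBS libraries. The other markers divided differently. Lyve1 had 16.5 CPM in replicate 1 and 14.2 CPM in replicate 3, inside the range of the WT PBS hearts. Cd163, Maf and Gas6 in replicate 1 also lay inside that range, at 31.4, 7.49 and 249 CPM, but replicate 3 was the lowest of all 19 libraries for these 3 genes.

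**Figure D3:**
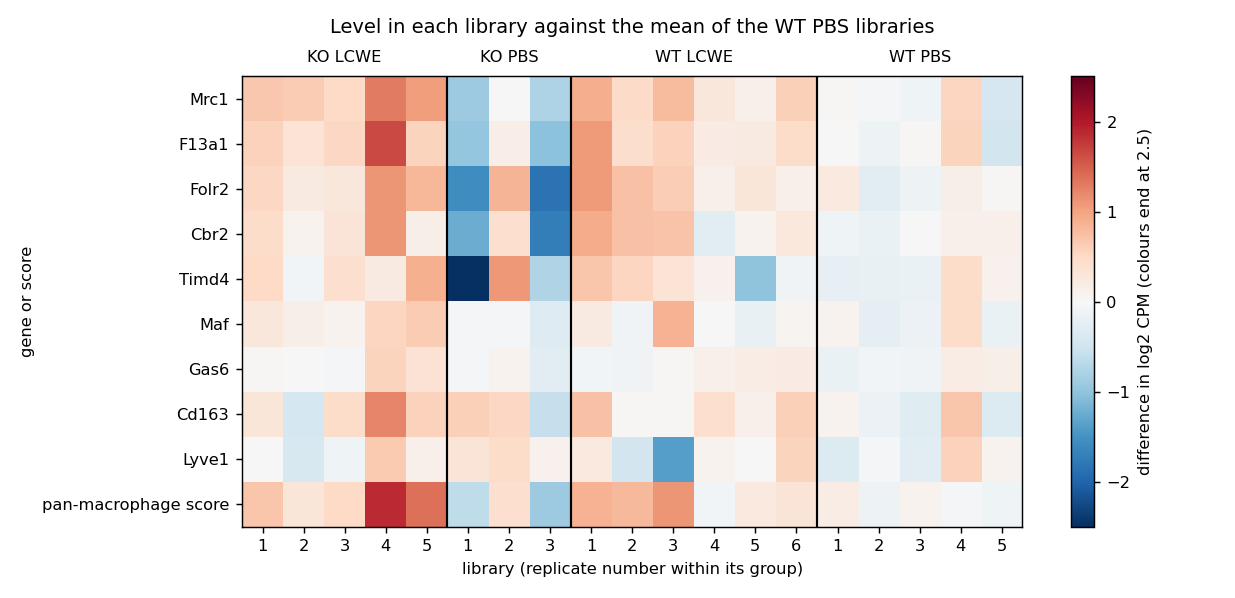
Difference in log2 CPM of each marker, and of the mean of 20 pan-macrophage genes (rows), in each library (columns, by group and replicate number) from the mean of the WT PBS libraries; red is higher and blue lower. KO LCWE replicate 4 is red in all markers, with the highest score (5.49), and the columns of KO PBS replicates 1 and 3 are blue in Mrc1, F13a1, Folr2, Cbr2 and the score but not in Lyve1.

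Sample numbers in the labels fall into 3 ranges whose meaning the labels leave unstated. The range of 100 to under 200 holds 3 KO LCWE libraries, 1 KO PBS library, WT LCWE replicates 1 to 3 and 4 WT PBS libraries. Within it, 3 of 9 markers rose with LCWE in WT hearts in edgeR, where 8.28% of all genes were called. Cbr2 had a log2 fold change of 0.80 ± 0.12 (adjusted p = 0.00993), Folr2 of 0.79 ± 0.16 (0.0178) and Mrc1 of 0.58 ± 0.16 (0.0403). The 3 LCWE libraries are those with high Rn45s, so this property and the treatment cannot be told apart within the range. For KO hearts the range leaves a single PBS library, replicate 1. The 5 markers called there therefore rest on that library, and 27.1% of all genes were called in the same fit. On the same single library rest 5 of 9 called for KO against WT under PBS (27% of all genes) and 3 of 9 for the interaction (15.1%). It is also the only KO PBS library with Alb under 20 CPM, and without the libraries above that limit 5 of 9 were called for KO against WT under PBS, with 19.1% of all genes.

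Because all macrophages carry many transcripts in common, each marker was also set against a score, the mean log2 CPM of 20 pan-macrophage genes such as Csf1r, Adgre1 and C1qa. The score was 4.58 ± 0.65 in KO LCWE hearts and 3.26 ± 0.70 in KO PBS hearts, and 4.18 ± 0.45 in WT LCWE hearts and 3.63 ± 0.13 in WT PBS hearts (SD, n = 5, 3, 6 and 5). It was thus 1.32 higher after LCWE in KO hearts and 0.55 higher in WT hearts, with overlapping groups in both. The values that follow are descriptions without a test. Because the score itself was higher after LCWE, a gene with an equal level in both groups lies below 0 on this measure: over all 14301 genes the median was -1.303 in KO hearts and -0.54 in WT hearts.

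Mrc1, F13a1, Folr2 and Cbr2 kept pace with the score. In KO hearts their log2 CPM minus the score differed between LCWE and PBS by 0.06, 0.01, 0.13 and -0.05. Timd4 differed by 0.10, but this rests on KO PBS replicate 1, which had 0 counts and lay at -5.81. KO PBS replicates 2 and 3 lay at -2.37 and -2.89 for Timd4, above all KO LCWE libraries, at -4.66 to -3.13. Lyve1, Cd163, Gas6 and Maf had -1.56, -1.07, -1.07 and -0.85, on either side of the median of all genes. For Lyve1 the log2 CPM minus the score was -0.79 ± 0.31 in KO LCWE hearts and 0.77 ± 0.55 in KO PBS hearts, and the groups did not overlap. For Cd163 it was 0.23 ± 0.31 in KO LCWE hearts and 1.303 ± 0.61 in KO PBS hearts, again without overlap. These were 2 of 9 markers, and 23.8% of all genes did not overlap on this measure, so their number is near the background. In WT hearts all 9 markers lay below 0 for LCWE minus PBS, as did 96.4% of all genes, by -0.71 for Lyve1, -0.48 for Gas6, -0.45 for Timd4 and -0.39 for Maf, and by -0.01 to -0.22 for the other 5, and LCWE and PBS overlapped for each. For Lyve1 the lowest of the 19 libraries was WT LCWE replicate 3, at -2.37 relative to the score, with 5.02 CPM.

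**Figure D4:**
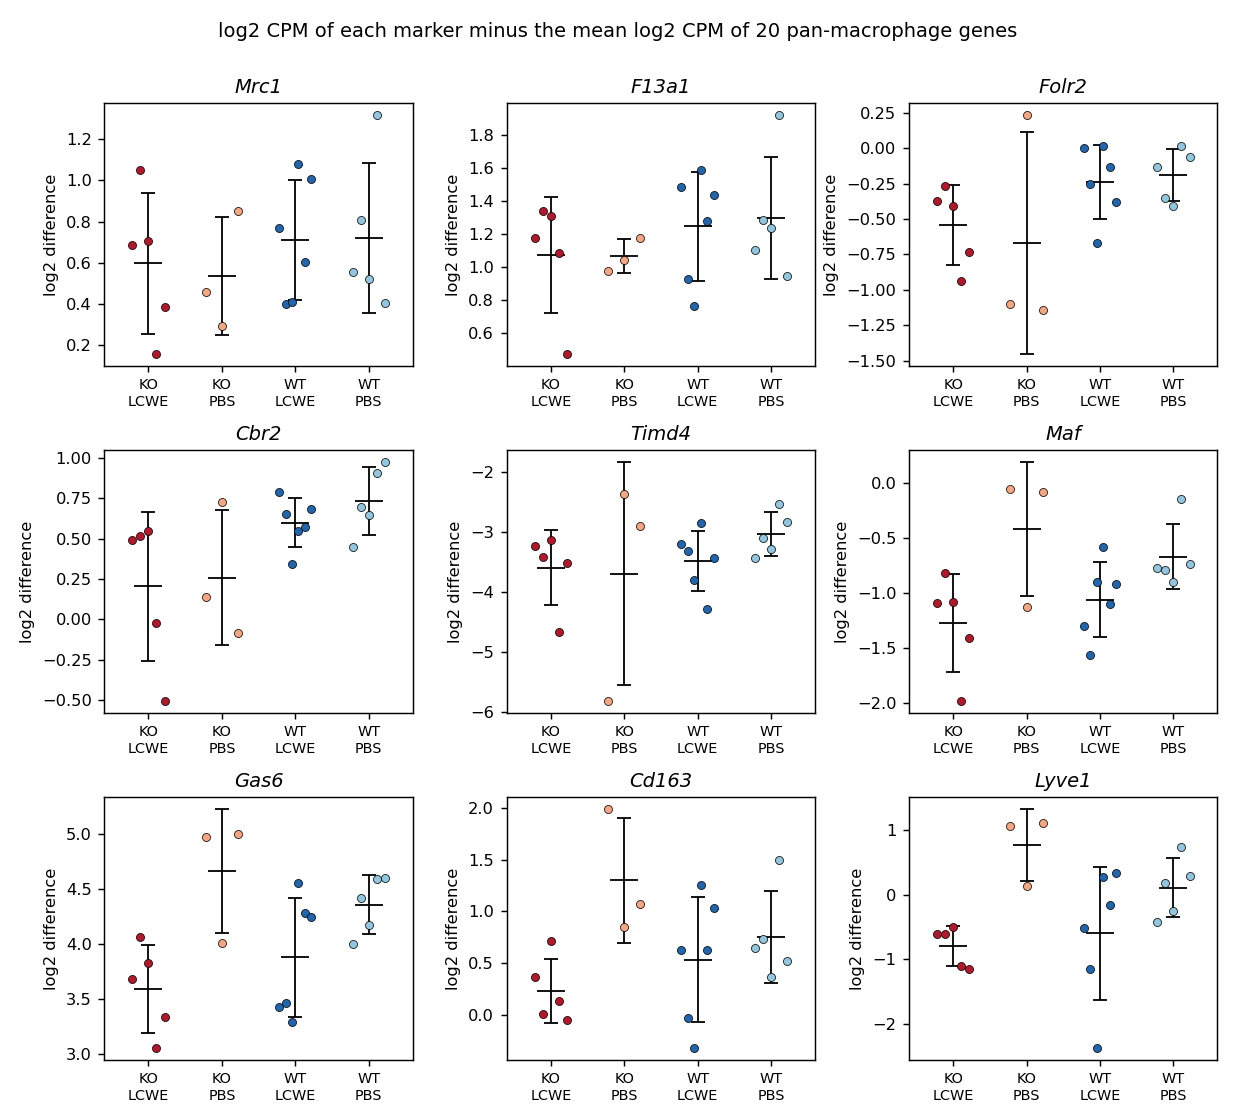
log2 CPM of each marker minus the mean log2 CPM of 20 pan-macrophage genes (y axis, each panel with its own range) in every library, by group (x axis), with bars for the mean and SD. Lyve1 and Cd163 in KO LCWE libraries lie below all 3 KO PBS libraries, as 23.7% of all genes do on this measure, whose median over all genes was -1.303 for LCWE minus PBS in KO hearts.

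Genes of related function were listed to place the markers. In KO hearts with LCWE, 0 of 21 tested genes among other resident macrophage genes passed in edgeR, with a median log2 fold change of 0.27. The estimate was above 0 in 14 of these 21 genes. The first 4 tested in list order all lay above the median of the list. Pf4, a platelet and macrophage chemokine, had 1.39 ± 0.44 (edgeR adjusted p = 0.0778) and the growth factor Igf1 1.09 ± 0.30 (0.0541). Stab1, a scavenger receptor, had 0.51 ± 0.17 and Vsig4, a complement receptor, 0.83 ± 0.91. Of the 20 pan-macrophage genes 4 rose, Itgam, Tyrobp, Aif1 and Cd53, and the median was 1.41. Of the recruited monocyte genes 2 of 13 rose, Spn and Napsa, with a median of 1.205, and Ccr2, the receptor that draws monocytes out of the marrow, had 2.14 ± 0.72 (adjusted p = 0.0900). Summed recruited monocyte genes ran from 191 to 278 CPM in KO LCWE and 146 to 216 CPM in KO PBS hearts, and from 159 to 274 CPM in WT LCWE and 190 to 241 CPM in WT PBS hearts. The highest of these genes were Fn1 and Ace, with means of 96.7 and 74.0 CPM in KO LCWE hearts. The sum therefore mainly follows Fn1 and Ace and says little about genes such as Ccr2. The part of recruited cells in the marker values was not tested.

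Of the TAM pathway, which receives Gas6, 0 of 8 tested genes passed, with a median of 0.05. Axl, the receptor with the highest level, had 0.18 ± 0.10, and Mertk, the receptor of cardiac macrophages, -0.78 ± 0.23 (edgeR adjusted p = 0.0622), opposite in sign to most pan-macrophage genes. Tyro3 had -0.23 ± 0.25 and Pros1, the other ligand, -0.04 ± 0.10. Other genes of dead cell uptake gave 0 of 10, with a median of -0.17. Among endocytic and scavenger receptors 1 of 14 passed: Cd36, a receptor for oxidised lipids that cardiac muscle and endothelium also carry, fell by 0.84 on the log2 scale (adjusted p = 0.0402). Of the growth and survival factors 0 of 11 passed. Csf1r, the receptor that macrophages need to live, had 1.08 ± 0.29 (adjusted p = 0.0524), and its ligands Csf1 and Il34 had 0.05 ± 0.16 and -0.56 ± 0.19. Spi1, named here because it encodes PU.1, had 1.42 ± 0.38 (adjusted p = 0.0508). In the other 4 comparisons 0 genes of these lists passed in edgeR, and the pan-macrophage median was 0.60 for LCWE in WT hearts, 0.40 for KO against WT under LCWE and -0.24 under PBS.

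Over the 19 libraries, the markers formed one close set and a looser remainder. The libraries share treatment, depth and cell content, so these correlations of log2 CPM are descriptions. Pearson's r was 0.953 between Mrc1 and F13a1 and 0.949 between Folr2 and Cbr2, and after removal of the group means it was 0.899 and 0.910. All pairs among Mrc1, F13a1, Folr2 and Cbr2 had r of 0.817 or more, and of 0.689 or more after that removal. KO PBS replicates 1 and 3 were the lowest of the 19 libraries for each of these genes, and KO LCWE replicate 4 the highest. Removal of the group means keeps such differences within a group, and r without these libraries was not computed. Timd4 had 0.632 to 0.761 with these 4 genes, and Maf 0.521 to 0.746. Lyve1 had r of -0.04 with Mrc1, -0.07 with Folr2 and -0.19 with Maf, and its highest were 0.566 with Cd163 and 0.430 with Gas6. After removal of the group means its r was 0.252 with Mrc1, 0.146 with Folr2 and -0.15 with Maf, so the sign turned for Mrc1 and Folr2, and it was 0.667 with Cd163 and 0.582 with Gas6.

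The genes outside the 9 whose log2 CPM was most like a marker's over the 19 libraries were named by Pearson's r. For Mrc1 these were Cyth4 (0.946), Adgre1 (0.940) and Aoah (0.932), and for F13a1 Csf1r (0.917), Cyth4 (0.909) and Adgre1 (0.908). Adgre1 and Csf1r are on the list of pan-macrophage genes. Folr2 was closest to Selplg (0.945), Lgmn (0.932) and Fgd2 (0.930), and Cbr2 to Sh3bgrl3 (0.929), Pepd (0.917) and Hyi (0.916). Selplg encodes the ligand of P-selectin and Lgmn a lysosomal protease. For Lyve1 they were Plbd2 (0.893), Plin4 (0.887) and Aff1 (0.878), where Plin4 encodes a coat protein of lipid droplets. For Cd163 they included Myo5a (0.805) and Bmper (0.791), and Maf was closest to Traf3ip2 (0.795), Snx20 (0.790) and Clec4a1 (0.785). For Gas6 they were Cxcl13 (0.891), Abhd12 (0.884) and C1ra (0.871), and for Timd4 Hsd17b12 (0.896), Amz1 (0.886) and Cmah (0.879).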

How the data were processed

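RNA was measured by sequencing in 19 mouse heart samples. The genotype and treatment labels define the groups, and replicate numbers follow accession order and pair nothing. Per the labels' protocols, total RNA went through reverse transcription and preamplification with a kit for whole transcriptomes. The deposited values are whole-number counts per gene symbol, without normalization, in 1 table, of which 0 columns belong to other samples. The submitters' processing notes name STAR 2.7.8a, limma and GRCm38 but give them no role. The sources used here do not give the counting program, the annotation or the use of strand.

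The filter on the deposited counts was filterByExpr (minimum count 10 and minimum total 15, edgeR 4.0.16, R 4.3.3). One quasi-likelihood model with robust dispersions held the 4 groups, with TMM scaling and no covariates. Benjamini-Hochberg adjustment ran over the 14301 genes that passed, at a threshold of 0.05. CPM use TMM-scaled library sizes, with a prior count of 2 on the log2 scale, and RPKM divide CPM by the union of exons in GENCODE M21. With totals from 11853233 to 16145911, counting error was largest for Timd4. Duplicate libraries were looked for by chi-square over 12111 genes, which averaged at least 8.24 per gene for pairs from the same group and 6.48 for pairs from different ones, so none was found. The fit was also run on simulated counts, drawn from a common mean per gene over all libraries apart from planted changes. These counts lack the differences among the KO PBS libraries, so no conclusion is drawn from them here.

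Alternatives were RLE or no scaling factors, no filter or a filter of 5 CPM in 3 libraries, a non-robust fit, DESeq2 1.42.0, limma-voom 3.58.1, only the groups compared, sample-number range or Y-linked level as covariates, subsets by sample number or Alb, and each library left out. The subset with Xist above 20 CPM was added after the data were seen. The 9 genes and the 21 other lists were chosen with earlier results of these data known. Named were all 9 genes, the members of other lists that passed and otherwise up to 4 in list order, the 3 genes most like each marker (1 is not reported here), Mcm8, and Spi1 beside this rule.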

Additional observations from a re-analysis of the deposited data

Results flagged for a closer look

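In 27 combinations of a marker with a group of 5 or 6 libraries, 4 had 1 library far from the others, by a rule that chance meets in about 1 in 20. F13a1 stood at 94.7 CPM in KO LCWE replicate 4, where the other 4 libraries had 38.5 to 45.2 CPM. Cbr2 stood at 44.0 CPM in the same library, with the others at 21.8 to 28.1 CPM. This library also had the highest summed pan-macrophage level, 1732 CPM, and its share in both values was not tested. F13a1 stood at 63.0 CPM in WT LCWE replicate 1, against 35.1 to 45.1 CPM in the other 5 libraries. Maf stood at 14.1 CPM in WT LCWE replicate 3, against 6.69 to 8.98 CPM in the others, the library that also had the lowest Lyve1, 5.02 CPM.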

How the results depend on the processing

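The number of markers called for LCWE against PBS in KO hearts was 2, with 415 genes called in all. With DESeq2 it was 3, with 1260 genes. It was 1 with no filter on low counts (282 genes) and 1 with the sample-number range as covariate (116 genes). With only the groups compared it was 0, with 0 genes. When 1 library was left out it was 0 to 5, with 1 to 2935 genes. For LCWE in WT hearts the number was 3 within sample numbers 100 to under 200 (8.28% of all genes called). For KO against WT under PBS it was 5 within that range (27% of all genes called), 5 without libraries with Alb above 20 CPM (19.1%), and 0 to 4 with 1 library left out. For the interaction it was 3 within that range (15.1%) and 0 to 3 with 1 library left out. Both subsets leave 1 KO PBS library, replicate 1, which is assumed to vary like the other groups, so these counts rest on it. For KO against WT under LCWE it stayed at 0 in every alternative run. Without libraries above the Alb limit no KO LCWE library remained, so only the 2 comparisons that lack them have values there. Genes called for LCWE in KO hearts numbered 415, from 1 to 2935 with 1 library left out and from 0 to 4001 otherwise, with 1260 by DESeq2 and 113 by limma-voom. In the same order they numbered 86, 0 to 2606 and 0 to 3985 for KO against WT under PBS, 1, 1 to 2 and 0 to 18 under LCWE, 0, 0 to 0 and 0 to 1221 for LCWE in WT hearts, and 0, 0 to 481 and 0 to 2230 for the interaction.

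No paired analysis was possible because the replicate numbers carry no pairing. Of 1399 alternative values of the 9 markers, 53 changed sign, all of them called in neither fit; 1296 kept direction and side of the threshold. Their log2 fold changes follow.

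For LCWE in KO hearts, Cd163 was -0.45 within sample numbers 100 to under 200, and Lyve1 0.36 and Timd4 -0.24 in libraries with Xist above 20 CPM. That last subset holds replicate 4 as its only KO LCWE library. With 1 library left out, Cd163 ran from -0.033 to 0.46 and Timd4 from -0.023 to 2.33. For LCWE in WT hearts, Gas6 was -0.040 with the sample-number covariate, -0.00165 without libraries above the Alb limit and -0.039 within sample numbers 100 to under 200. With 1 library left out, Lyve1 ran from -0.25 to 0.091 and Maf from -0.020 to 0.31.

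For KO against WT under LCWE, the sample-number covariate gave -0.091 for Folr2 and -0.12 for Cbr2. Sample numbers 100 to under 200 gave -0.13 for Mrc1, -0.13 for Cd163, -0.46 for Folr2, -0.22 for F13a1, -0.24 for Timd4, -0.20 for Maf and -0.49 for Cbr2. With 1 library left out, Cd163 ran from -0.075 to 0.35, Lyve1 from -0.046 to 0.30, Folr2 from -0.050 to 0.23, F13a1 from -0.020 to 0.43 and Cbr2 from -0.21 to 0.12. For KO against WT under PBS, libraries with Xist above 20 CPM gave 0.050 for Folr2 and 0.46 for Timd4. With 1 library left out, Folr2 ran from -1.74 to 0.085, Timd4 from -1.90 to 0.46 and Gas6 from -0.14 to 0.019.

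For the interaction, Cd163 was 0.074 with library totals alone, Lyve1 0.064 with the sample-number covariate and Maf -0.093 within sample numbers 100 to under 200. Libraries with Xist above 20 CPM gave 0.97 for Cd163, 0.52 for Lyve1 and -0.27 for Timd4. With 1 library left out, Cd163 ran from -0.33 to 0.16, Timd4 from -0.20 to 2.16 and Lyve1 from -0.31 to 0.040. The causes of these shifts were not tested.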

Other observations

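Markers of other cells that may carry some of the 9 genes were summed in the same libraries. Neutrophil markers, of which 7 of 10 were tested and 0 passed in edgeR, had a median log2 fold change of 3.67 after LCWE in KO hearts and 2.36 in WT hearts. Their sum reached 6.18 to 109 CPM in KO LCWE libraries, against 2.94 to 4.94 CPM in KO PBS libraries, and 3.72 to 58.6 CPM in WT LCWE libraries, against 2.43 to 7.48 CPM in WT PBS libraries. The median sums, 14.0 CPM in KO LCWE and 10.2 CPM in WT LCWE libraries, lay far below the upper ends. Levels under PBS were low, as with S100a8 at means of 0.469 CPM in KO and 0.530 CPM in WT hearts, so the ratios are uncertain. Markers of T and NK cells, 6 of 10 tested and 0 passed, had medians of 1.76 in KO and 1.94 in WT hearts. Platelet markers, from cells that also carry F13a1, had medians of -0.34 in KO and 1.18 in WT hearts. Their sum was highest in KO LCWE replicate 4 (56.4 CPM) and WT LCWE replicate 3 (64.9 CPM). These libraries also had the highest pan-macrophage sums of their groups, 1732 and 1068 CPM. The platelet list includes Pf4, a platelet and macrophage chemokine, which averaged 17.4 CPM in KO LCWE and 19.6 CPM in WT LCWE hearts. In replicate 4 of KO LCWE F13a1 was also highest, at 94.7 CPM, while in WT LCWE replicate 3 it was 45.1 CPM. The part of platelets in F13a1 was not tested.

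Of the fibroblast markers 1 of 10, Dpt, rose with LCWE in KO hearts (median of the list 0.80), and of the cardiomyocyte markers 1 of 10, Actc1. Blood endothelial markers had 0 of 10, with a median of -0.11. MHC class II genes had 0 of 7 in KO hearts, with a median of 0.66, and inflammatory and lipid-associated macrophage genes 0 of 14, with a median of 0.47. In the same comparison 0 of 4 tested B cell, 0 of 3 dendritic cell, 0 of 8 liver, 0 of 1 lung and 0 of 4 Y-linked genes passed in edgeR. KO LCWE replicate 2 had Xist at 0.649 CPM, like the libraries with Y-linked transcripts, but a Y-linked mean of -0.94 on the log2 CPM scale, like the libraries with Xist.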
